A study of Mus musculus with 6 samples.

Results

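The liver turns cholesterol into bile acids, and 9 genes of that pathway and of its hormonal brake were examined in hepatocytes with and without the transcription factor XBP1. They are Cyp7a1, Cyp8b1, Cyp27a1, Cyp7b1, Cyp39a1 and Hsd3b7, which encode enzymes that build the bile acids, Baat, which encodes the enzyme that conjugates them, and Fgfr4 and Klb, which encode the receptor pair that restrains their synthesis. They were taken by gene symbol from a table of 54532 genes, and 8 of the 9 had enough reads to be tested. The cells were primary hepatocytes of C57BL/6 mice aged 32 to 34 weeks, and every mouse had been on a high-fat diet (HFD) for 26 weeks, controls included. The 3 XCON libraries came from Xbp1FL/FL mice, whose Xbp1 alleles are floxed but intact, and the 3 XCKO libraries from Xbp1ΔHep mice, in which Xbp1 is deleted in hepatocytes. The labels do not name the Cre line, the sex of the mice, the mouse behind each library or the hour of collection. There was no group on another diet, so each difference below is between genotypes on the high-fat diet.

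In the classical pathway, CYP7A1 adds the first hydroxyl group to cholesterol in the endoplasmic reticulum and sets the rate of synthesis, and HSD3B7 then rearranges the ring. CYP8B1 adds the further hydroxyl group that makes cholic acid, so its activity sets the balance between cholic acid and the other primary bile acids. In the alternative pathway CYP27A1, a mitochondrial enzyme, oxidises the sterol side chain, and CYP7B1 hydroxylates the oxysterols that result. CYP39A1 does the same to the oxysterol that CYP46A1 makes, and BAAT joins the finished acids to taurine or glycine. Bile acids returning to the gut make it release FGF15, which binds FGFR4 and its co-receptor β-klotho, encoded by Klb, on hepatocytes and lowers Cyp7a1 transcription. In the liver the nuclear receptor FXR and its target SHP act on the same gene.

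Of the tested genes, Cyp8b1 and Cyp27a1 were called higher in XCKO and none lower. Cyp8b1 was 2.55-fold and Cyp27a1 1.62-fold higher. Their groups did not overlap, where XCKO lay above without overlap for 17.6% of all genes. Of 19 alternative settings, the call was lost in 4 for Cyp8b1 and in 11 for Cyp27a1. With scaling to hepatocyte markers, the log2 fold change of Cyp27a1 was 0.22 (edgeR adjusted p = 0.387). Cyp7a1 had the largest fold change, 3.32-fold, but differed so much among the XCON libraries that it did not pass the test. Values for Cyp7b1, Cyp39a1, Baat, Fgfr4 and Klb did not pass either. Because 9.27% of all 14873 genes tested were called in either direction, 5.21% higher and 4.05% lower, 2 calls among 8 genes is a description of these genes and no evidence about the pathway as a whole.

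The promoters of the 2 genes that rose are shown because XBP1 is a DNA-binding factor and Cyp8b1 holds a match to the core of its element. The sequences are from RefSeq on GRCm38.p6 and cover the 250 bases before the annotated start, 5′ to 3′ on the strand of the gene. Capitals mark matches to the letters searched on both strands: GACGTG, the core of an element bound by XBP1, AGGTCA, a nuclear receptor element, CAAAGTC, the start of an HNF4 element, and CAAGGNC, the core of the element bound by LRH-1.
Cyp8b1, minus strand, chr9:121916306-121916555: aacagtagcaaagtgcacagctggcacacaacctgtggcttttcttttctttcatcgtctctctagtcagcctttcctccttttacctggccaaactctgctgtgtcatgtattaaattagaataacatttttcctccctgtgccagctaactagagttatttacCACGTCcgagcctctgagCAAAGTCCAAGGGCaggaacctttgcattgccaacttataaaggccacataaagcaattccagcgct
Cyp27a1, plus strand, chr1:74713285-74713534: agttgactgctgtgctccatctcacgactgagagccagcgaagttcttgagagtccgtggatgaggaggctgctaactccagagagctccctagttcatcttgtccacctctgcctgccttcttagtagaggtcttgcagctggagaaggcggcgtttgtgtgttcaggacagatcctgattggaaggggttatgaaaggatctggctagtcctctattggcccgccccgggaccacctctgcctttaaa

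In the Cyp8b1 window CAAAGTC lay 67 to 61 bases and CAAGGNC, as CAAGGGC, 60 to 54 bases before the start, directly next to each other. GACGTG lay on the opposite strand 85 to 80 bases before the start. The Cyp27a1 window held none of the 4 motifs, and neither did those of Klb and Hsd3b7. The Fgfr4 window held GACGTG 189 to 184 bases before the start and CAAGGNC on the opposite strand 203 to 197 bases before it. Among all 32851 RefSeq promoters of the same length, GACGTG was present in 5.2%, AGGTCA in 14%, CAAAGTC in 3.84% and CAAGGNC in 15%. These are matches of letters and not measured sites of binding. RefSeq windows were found for 5 of the 9 genes.

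Read counts totalled 23919355 to 26502456 in XCON and 26477489 to 27240079 in XCKO. Levels are given as CPM, the read count of a gene scaled to a common library size, with TMM as the scaling, a method that adjusts library totals so that most genes do not differ, and fold changes as log2 values of XCKO over XCON with their standard error. The quasi-likelihood test of edgeR was fitted to the whole table, its p-values were adjusted by Benjamini and Hochberg's method over the 14873 genes, and a gene is called where the adjusted p is under 0.05. No label ties a library to a mouse, so a p-value here measures spread between libraries, which may be technical. Xbp1 itself fell from 171, 294 and 319 CPM in XCON 1, 2 and 3 to 59, 39.3 and 67.4 CPM in XCKO 1, 2 and 3, a log2 fold change of -2.24 ± 0.29 (SE, adjusted p = 0.00837). The defining hepatocyte markers Alb, Apoa1 and Ttr were abundant in all 6 libraries, at no less than 3881 CPM.

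The preparations also held other cells, and no defining marker of macrophages (Adgre1, Clec4f), stellate cells (Lrat, Reln), cholangiocytes (Krt19, Epcam) or endothelial cells (Stab2, Clec4g) was at 0 in any library. Summed macrophage markers ranged from 1804 to 3510 CPM in XCON and from 624 to 1736 CPM in XCKO, and 1 of 14, Cd68, was called lower (4.05% of all genes were). Stellate cell markers summed to 339 to 699 CPM in XCON and 138 to 337 CPM in XCKO, with 4 of 14 called lower. The 10 cholangiocyte markers summed to 274 to 608 CPM in XCON and 96.8 to 173 CPM in XCKO, mostly reads of Spp1, which other cells also express (227 to 563 CPM in XCON and 76.3 to 157 CPM in XCKO). Of the 8 cholangiocyte markers tested none was called by edgeR, with 6 at an unadjusted p under 0.05, beside 4421 of all 14873 genes tested. Endothelial markers summed to 765 to 799 CPM in XCON and 587 to 1188 CPM in XCKO, and none of 12 was called by edgeR, DESeq2 or limma-voom, or had an unadjusted p under 0.05 in edgeR. DESeq2 called 7 macrophage, 8 stellate and 4 cholangiocyte markers lower, and limma-voom 1, 3 and 1. Called lower with library totals were 6, 9 and 3 of them, and with scaling to hepatocyte markers 11, 12 and 6, besides 1 endothelial marker. Of all genes tested, DESeq2 called 1238 of 14865 lower and limma-voom 617 of 14873. With library totals 2032 of the 14873 were called lower, and with scaling to hepatocyte markers 4234. Of 13 hepatocyte markers 3 were called higher (Ttc36, Hpd and Apoa2), beside 5.21% of all genes. The 13 summed to 81507 to 107980 CPM in XCON and 108850 to 141740 CPM in XCKO. These 13 are also the markers used for the hepatocyte scaling, and their median log2 fold change with TMM was 0.40. In these bulk libraries fewer cells of a type and less RNA per cell cannot be told apart. The part of these shifts in the results below was not tested, other than by the scaling to hepatocyte markers given beside many of them. Over all genes tested, the median log2 fold change was -0.05 with TMM, -0.54 with that scaling and -0.31 with plain library totals. The share of calls that were higher in XCKO was 56.2%, 4.01% and 13.8% in the same order. The same scalings are given beside many, but not all, of the results below.

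**Figure D1:**
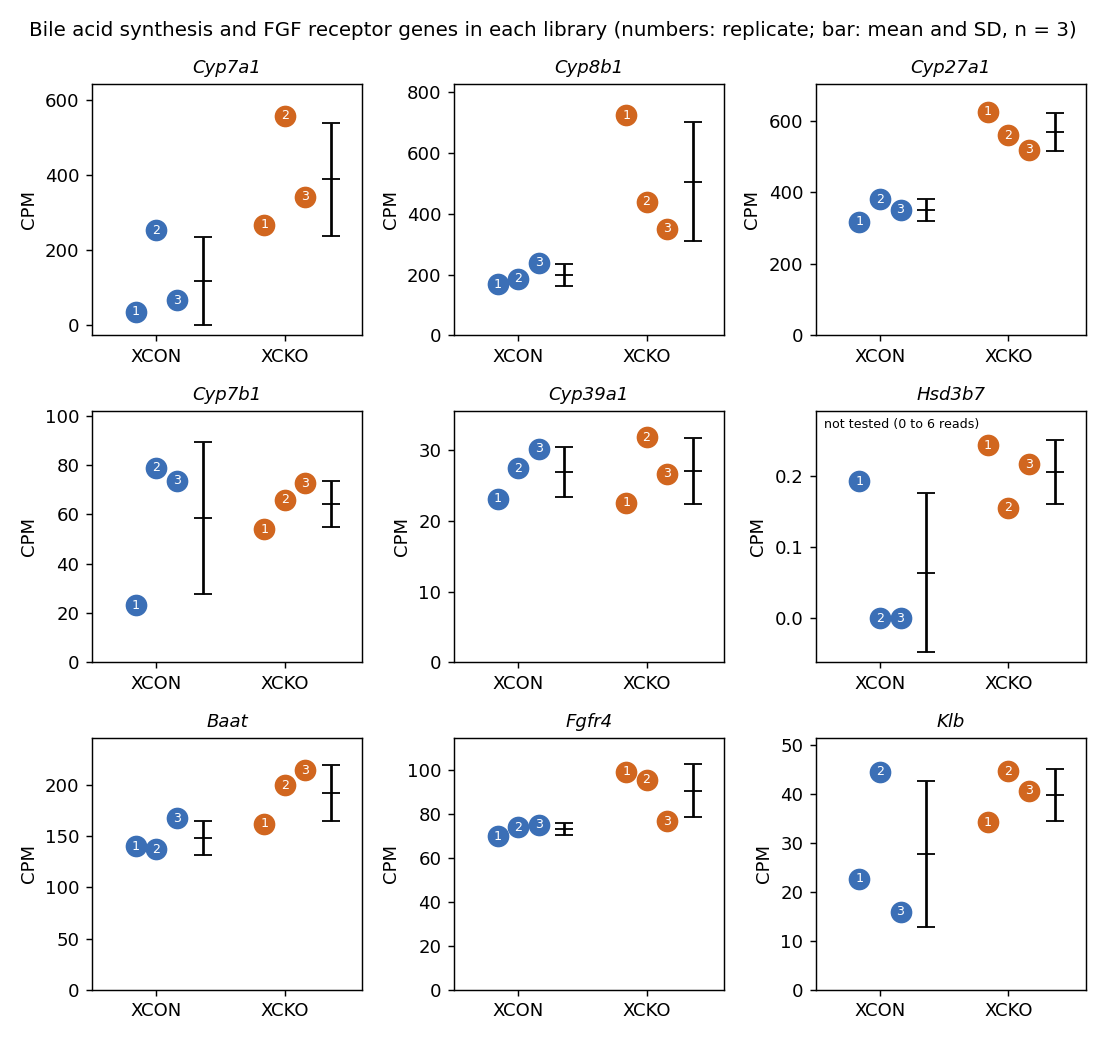
CPM of the 9 genes (y axis, each panel on its own scale) in the 3 XCON libraries (blue) and the 3 XCKO libraries (orange), with the replicate number in each point and the mean and SD of 3 libraries as a bar beside them. Cyp7a1, Cyp8b1, Cyp27a1 and Fgfr4 show no overlap between the groups, XCON 2 has the highest Cyp7a1 and Klb of its group, near or within the XCKO range, and Hsd3b7 has 0 to 6 reads a library.

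Cyp7a1 (ENSMUSG00000028240, chr4:6265612-6275633, minus strand, GRCm38/mm10) encodes the rate-limiting enzyme of the classical pathway. It measured 33.8, 251 and 65.4 CPM in XCON 1, 2 and 3, against 267, 557 and 342 CPM in XCKO 1, 2 and 3. All XCKO libraries lay above all XCON libraries, but XCON 2 came close to XCKO 1 and lay far above the other XCON libraries. Means and SDs over the 3 libraries of a group were 117 ± 118 CPM in XCON and 388 ± 151 CPM in XCKO. This gave a log2 fold change of 1.73 ± 0.76 (adjusted p = 0.185), with a 95% interval of -0.10 to 3.56, or 0.936-fold to 11.8-fold. With library totals the log2 fold change was 1.49 (edgeR adjusted p = 0.235), and with hepatocyte marker scaling 1.33 (adjusted p = 0.287). In the authors' deposited table the log2 fold change of Cyp7a1 is 1.78 with an adjusted p of 0.162. When XCON 2 was left out, the edgeR value became 2.97 with an adjusted p of 0.0284, and this was the one setting tried in which Cyp7a1 was called.

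Cyp8b1 (ENSMUSG00000050445, chr9:121914356-121916305, minus strand) encodes the sterol 12α-hydroxylase that directs synthesis to cholic acid. Its levels were 169, 187 and 238 CPM in XCON 1, 2 and 3, while XCKO 1, 2 and 3 gave 725, 439 and 351 CPM. The groups did not overlap, and XCKO 1 was the highest of all. Means of 198 ± 35.9 and 505 ± 195 CPM (SD, n = 3) gave a log2 fold change of 1.35 ± 0.28 (adjusted p = 0.0258), that is 2.55-fold with a 95% interval of 1.64 to 3.98. XCKO 1 is also a library with raised globin reads, 329 CPM against 9.13 to 18.6 CPM in XCON, as is XCKO 3 with 825 CPM, which had the lowest Cyp8b1 of its group. Without XCKO 1 the log2 fold change of Cyp8b1 was 1.01 and the call held. The call was lost without XCON 1 (adjusted p = 0.0796) and without XCON 2 (adjusted p = 0.0722). It was also lost with a length trend removed (adjusted p = 0.0561), and held with scaling to library totals, at 1.09, and to hepatocyte markers, at 0.89. The authors' deposited table gives 1.38 with an adjusted p of 3e-05.

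Cyp27a1 (ENSMUSG00000026170, chr1:74713574-74737892, plus strand) opens the alternative pathway. It measured 318, 381 and 351 CPM in XCON 1, 2 and 3, compared with 625, 560 and 519 CPM in XCKO 1, 2 and 3. The groups lay well apart and the libraries of each group lay close together, with coefficients of variation of 8.94% and 9.38%. With group means of 350 ± 31.3 and 568 ± 53.3 CPM (SD, n = 3), Cyp27a1 rose by 0.70 ± 0.17 log2 units (adjusted p = 0.0399), 1.62-fold with a 95% interval of 1.24 to 2.12. The call sits near the threshold and was lost whenever any 1 library was left out, at adjusted p-values of 0.0653 to 0.104, with log2 fold changes of 0.63 to 0.78. With hepatocyte marker scaling the value was 0.22 (adjusted p = 0.387), with library totals 0.44 (adjusted p = 0.129) and with a length trend removed 0.57 (adjusted p = 0.0828). Its rise relative to most genes was thus not a difference past the threshold relative to the 13 hepatocyte markers. The authors' deposited table gives 0.73 with an adjusted p of 0.000498.

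Cyp7b1 (ENSMUSG00000039519, chr3:18071950-18243338, minus strand) encodes the oxysterol 7α-hydroxylase that follows CYP27A1, an enzyme known for higher levels in male than female mouse liver. It was at 23.1, 78.9 and 73.7 CPM in XCON 1, 2 and 3, against 54, 66 and 72.5 CPM in XCKO 1, 2 and 3. XCON 1 alone was low, and the XCKO libraries lay within the range of XCON. The log2 fold change of 0.13 ± 0.42 (adjusted p = 0.857) had an interval of -0.84 to 1.11, and its sign turned to -0.25 without XCON 1, to -0.14 with library totals and to -0.30 with hepatocyte marker scaling. All 6 libraries held reads of the Y-linked genes Ddx3y, Uty, Kdm5d and Eif2s3y, at 361 to 1681 counts, and 0 to 6 counts of Xist. Reads of Y-linked genes with almost none of Xist mark male cells in both groups. XCON 1 also had the highest share of mitochondrial reads, 22.8% against 8.99 to 13.1% in the other libraries. XCON 1 was also the lowest of the 6 libraries for Cyp7a1, Cyp8b1, Cyp27a1 and Fgfr4, though not for Cyp39a1, Baat or Klb. The part of its mitochondrial share in its low Cyp7b1 or in these other levels was not tested.

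Cyp39a1 (ENSMUSG00000023963, chr17:43667425-43751431, plus strand), another oxysterol 7α-hydroxylase, gave 23.2, 27.5 and 30.2 CPM in XCON 1, 2 and 3, while XCKO 1, 2 and 3 gave 22.5, 31.9 and 26.7 CPM. The groups overlapped almost fully. The log2 fold change was 0.00 ± 0.17 (adjusted p = 0.99), and its 95% interval of -0.38 to 0.39 corresponds to 0.767-fold to 1.31-fold. With hepatocyte marker scaling its value was -0.47 and with library totals -0.26, neither of them past the threshold.

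Baat (ENSMUSG00000039653, chr4:49489422-49506557, minus strand), the conjugating enzyme, measured 140, 137 and 168 CPM in XCON 1, 2 and 3, compared with 162, 200 and 215 CPM in XCKO 1, 2 and 3. XCKO 1 lay below XCON 3, so the groups overlapped. The log2 fold change was 0.37 ± 0.17 (adjusted p = 0.188), with a 95% interval of -0.02 to 0.77, and it turned to -0.12 with hepatocyte marker scaling.

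Hsd3b7 (ENSMUSG00000042289, chr7:127800604-127803802, plus strand), the enzyme that follows the 7α-hydroxylases in both pathways, had 5, 0 and 0 counts in XCON 1, 2 and 3, against 6, 4 and 5 counts in XCKO 1, 2 and 3. This is too few to test, and no fold is given. In GENCODE M21, 99.17% of its 2769 exon bases also belong to exons of other genes. Of these, 9430064I24Rik on the opposite strand covers 1729 bases and Gm49388 on the same strand 1717 bases, and they had 1 to 10 and 0 counts per library themselves. None of the other 8 genes shares an exon base with another annotated gene. The sources used here do not say how reads on shared bases were counted, and the count of Hsd3b7 cannot be read as its level.

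Fgfr4 (ENSMUSG00000005320, chr13:55152640-55168759, plus strand), the main FGF receptor of hepatocytes, was at 69.8, 73.8 and 75 CPM in XCON 1, 2 and 3, against 99.1, 95.5 and 76.6 CPM in XCKO 1, 2 and 3. XCKO 3 lay just above the highest XCON library and the other XCKO libraries clearly above it. The log2 fold change of 0.31 ± 0.15 (adjusted p = 0.21) had a 95% interval of -0.04 to 0.66. It was 0.05 with library totals and -0.17 with hepatocyte marker scaling.

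Klb (ENSMUSG00000029195, chr5:65348314-65384007, plus strand), the co-receptor β-klotho, measured 22.7, 44.6 and 16 CPM in XCON 1, 2 and 3, while XCKO 1, 2 and 3 gave 34.2, 44.8 and 40.8 CPM. XCON 2 lay within the range of XCKO and the other XCON libraries lay below it. Its log2 fold change was 0.52 ± 0.35 (adjusted p = 0.357), with a 95% interval of -0.30 to 1.34. Without XCON 2 it was 1.05 and passed (adjusted p = 0.0418), and with hepatocyte marker scaling it was 0.05. Across the 8 tested genes, 4 had groups that did not overlap, Cyp7a1, Cyp8b1, Cyp27a1 and Fgfr4, all with XCKO above, where the same held for 17.6% of all genes and groups were apart in either direction for 35.7%. Their median log2 fold change was 0.45 beside -0.05 for all genes tested, and -0.04 beside -0.54 with hepatocyte marker scaling.

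**Figure D2:**
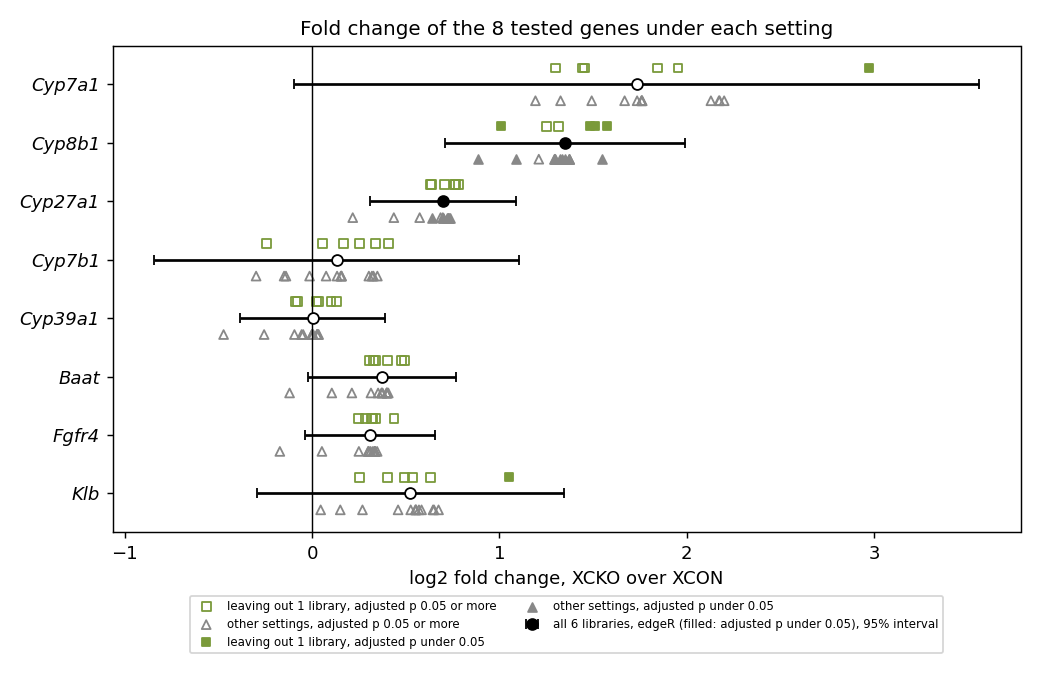
Log2 fold change of XCKO over XCON (x axis) of the 8 tested genes (rows) with all 6 libraries (circles with the 95% interval), with 1 library left out (squares) and under the other settings (triangles), filled where the adjusted p is under 0.05. Cyp8b1 stays between 0.89 and 1.58, Cyp7a1 spans 1.19 to 2.97 with 1 filled mark, and Cyp7b1 and Cyp39a1 lie on either side of 0.

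Levels of different genes were compared per gene length, in the authors' deposited FPKM, which divides the reads of a gene by its length as well as by a constant of the library. In XCON the order was Cyp27a1 at 157 ± 13.4, Cyp8b1 at 99.1 ± 19.7, Baat at 74.6 ± 9.86, Cyp7a1 at 27.1 ± 26.8, Cyp7b1 at 26.4 ± 13.9, Fgfr4 at 20 ± 0.97, Cyp39a1 at 8.61 ± 1.24 and Klb at 5.91 ± 3.1 FPKM (SD, n = 3). In XCKO the order of the means was unchanged, with Cyp27a1 at 261 ± 23.5, Cyp8b1 at 258 ± 99.9, Baat at 99.1 ± 14.5, Cyp7a1 at 92.6 ± 34.4, Cyp7b1 at 29.6 ± 4.57, Fgfr4 at 25.5 ± 3.1, Cyp39a1 at 8.83 ± 1.42 and Klb at 8.76 ± 1.1 FPKM. Neighbours in this order did not all differ beyond their spread. The ranges of Cyp27a1 and Cyp8b1 were separate in XCON and overlapped in XCKO, while Cyp8b1 overlapped Baat in XCON and was separate from it in XCKO. Cyp7a1 was below Baat without overlap in XCON, and in XCKO it overlapped Baat and was clear of Cyp7b1. The ranges of Cyp7b1 and Fgfr4 overlapped in both groups, as did those of Cyp39a1 and Klb, and both receptor genes had lower levels than Cyp27a1, Cyp8b1 and Baat in every library.

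Ratios between genes of the same library do not depend on how libraries are scaled, and 6 were compared between genotypes. With 3 libraries against 3, the exact permutation test used here (two-sided) cannot go below a p of 0.1. The Cyp7b1 to Cyp7a1 ratio of FPKM, alternative over classical 7α-hydroxylase, was 1.32, 0.605 and 2.17 in XCON 1, 2 and 3, against 0.39, 0.228 and 0.409 in XCKO 1, 2 and 3. All XCKO ratios were below all XCON ratios, with a difference of -1.86 on the log2 scale and an exact p of 0.1. The ratio of Cyp7a1 to Fgfr4 was 0.411, 2.89 and 0.74 in XCON, against 2.28, 4.95 and 3.79 in XCKO, and only XCON 2 overlapped with XCKO (difference 1.87 log2 units, exact p = 0.2). Cyp8b1 to Cyp7a1 ran from 1.59 to 10.7 in XCON and from 1.69 to 5.82 in XCKO, with no separation (difference -0.87 log2 units, exact p = 0.5). The exact p was 0.3 for Cyp27a1 to Cyp7a1, at a difference of -1.47 log2 units, and 0.6 for both Cyp7b1 to Cyp27a1, at -0.38, and Klb to Fgfr4, at 0.35. After Benjamini-Hochberg adjustment over the 6 ratios every p was 0.6.

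Cyp7a1 is a gene with a daily rhythm, and the labels give no hour of collection, so the clock genes of each library are given beside it. Dbp, an output gene of the clock, measured 1.69, 57.8 and 1.05 CPM in XCON 1, 2 and 3, compared with 5.99, 68.3 and 46.3 CPM in XCKO 1, 2 and 3. Arntl, which encodes BMAL1 and peaks in the opposite phase, measured 17.5, 4.47 and 30.5 CPM in XCON, against 14.5, 4 and 3.11 CPM in XCKO. XCON 2 thus stood with XCKO 2 and 3, and XCON 1 and 3 stood at the other end with XCKO 1 between. None of 16 clock genes was called between the genotypes by edgeR or limma-voom and 1 was called by DESeq2. By edgeR, 1 of them had an unadjusted p under 0.05, beside 4421 of all 14873 genes tested. DESeq2 called 17.8% of all genes it tested. The first principal component of these genes held 90.8% of their variance and was -5.79, 4.37 and -6.23 in the XCON libraries, against -1.97, 4.71 and 4.91 in the XCKO libraries.

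Among the 3 libraries on the high side of this component, XCON 2, XCKO 2 and XCKO 3, Cyp7a1 was at 251, 557 and 342 CPM and Klb at 44.6, 44.8 and 40.8 CPM. Cyp8b1 was at 187, 439 and 351 CPM in the same libraries. Among the other libraries, XCON 1, XCON 3 and XCKO 1, Cyp7a1 was at 33.8, 65.4 and 267 CPM and Klb at 22.7, 16 and 34.2 CPM. With 1 library of a genotype on each side, no comparison was made within a side. With the component as a covariate, an alternative added after its values were seen, the log2 fold change of Cyp7a1 was 1.19 ± 0.39 (edgeR adjusted p = 0.144), down from 1.73 with an SE of 0.76. That of Klb was 0.15 ± 0.21 (adjusted p = 0.702), that of Cyp8b1 1.55 ± 0.28 (adjusted p = 0.0386) and that of Cyp27a1 0.69 ± 0.21 (adjusted p = 0.116). In that fit 2.27% of all genes were called for the genotype, against 9.27% without the covariate. The libraries fall into separate clusters on the component, so no correlation is given, and what set the component apart in these libraries was not tested.

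**Figure D3:**
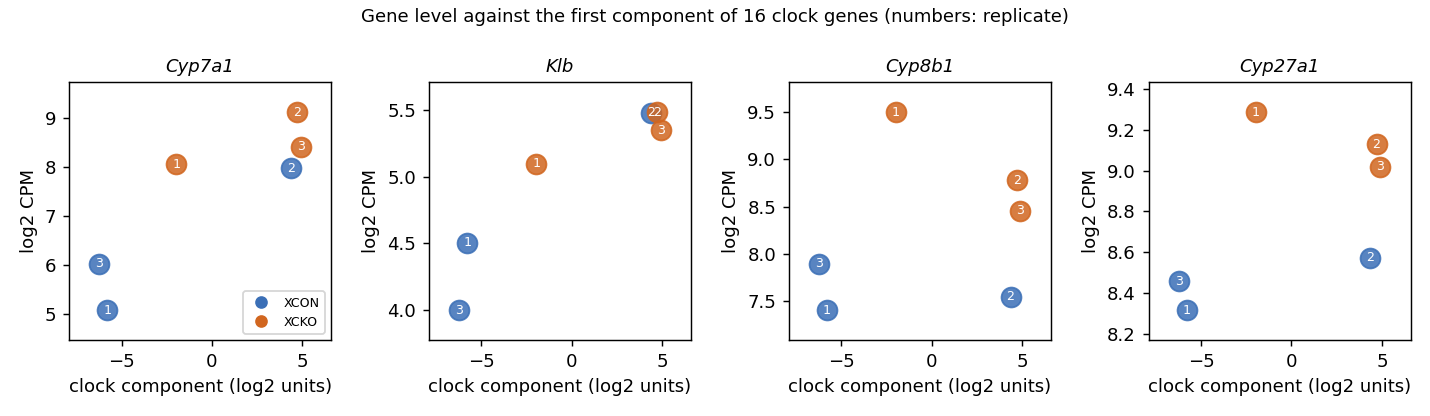
Log2 CPM of Cyp7a1, Klb, Cyp8b1 and Cyp27a1 (y axis) against the first principal component of 16 clock genes (x axis, log2 units) in the XCON (blue) and XCKO (orange) libraries, with the replicate number in each point. XCON 2 lies at the right with XCKO 2 and 3, and its level is within the XCKO range for Klb and below all XCKO libraries for Cyp7a1, Cyp8b1 and Cyp27a1.

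Of the 17 remaining enzymes of bile acid and oxysterol synthesis 16 were tested, and 4 were called higher and none lower, beside 5.21% and 4.05% of all genes. All 16 log2 fold changes were above 0, with a median of 0.57 beside -0.05 for all genes tested. With library totals 15 and with hepatocyte marker scaling 9 of the 16 were above 0, and 2 (Cyp3a11 and Cyp46a1) and 1 (Cyp3a11) were called. Cyp3a11, which hydroxylates bile acids and drugs, rose from 3149, 2592 and 3672 CPM in XCON 1, 2 and 3 to 10411, 8992 and 11989 CPM in XCKO 1, 2 and 3, by 1.74 ± 0.23 log2 units (adjusted p = 0.00837). It was called in each of the 6 fits without 1 library, although reads of its close paralogs may be split among them. Cyp46a1, which makes a side-chain oxysterol, was between 2.23 and 6.43 CPM in XCON and between 11.1 and 15.4 CPM in XCKO, a rise of 1.66 ± 0.36 log2 units (adjusted p = 0.0299) that was called in 2 of 6 fits without 1 library and lost with the clock covariate (adjusted p = 0.111). The peroxisomal side-chain enzymes Acaa1a (0.73 ± 0.15, adjusted p = 0.0252) and Hsd17b4 (0.66 ± 0.17, adjusted p = 0.0473) rose less, and held in 1 and 0 of the 6 fits without 1 library. Acaa1a has a close paralog as well. Ch25h, which makes another oxysterol, had too few reads to be tested, with 21, 9 and 28 counts in XCON against 2, 0 and 1 in XCKO, and it was called lower both with no filter on low counts and in the fit without XCON 2.

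Other enzymes of the route had positive values that did not pass in edgeR. Slc27a5, the bile acid CoA ligase that acts before BAAT, measured 448, 789 and 787 CPM in XCON, while XCKO gave 1245, 1073 and 1196 CPM, without overlap (0.80 ± 0.24, adjusted p = 0.0713), and was called by DESeq2 (adjusted p = 0.0082) and by edgeR with no filter on low counts (adjusted p = 0.0145). Acox2, the peroxisomal oxidase of the side chain, gave 0.48 ± 0.21 (adjusted p = 0.168), and Akr1d1, the steroid reductase that follows HSD3B7, 0.45 ± 0.25 (adjusted p = 0.266). Cyp2c70, which makes the muricholic acids of mice, gave 0.90 ± 0.39 (adjusted p = 0.172).

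Of 16 transcription factors known to act on these genes, 1 was called higher and none lower, a share near that of all genes, with a median log2 fold change of 0.20, or -0.06 with library totals and -0.28 with hepatocyte marker scaling. Cebpa, a hepatocyte identity factor, rose from 180, 294 and 263 CPM in XCON 1, 2 and 3 to 410, 536 and 580 CPM in XCKO 1, 2 and 3 (1.05 ± 0.23, adjusted p = 0.03), and the call held in 2 of 6 fits without 1 library. Nr0b2, which encodes SHP, the repressor of Cyp7a1 and Cyp8b1, measured 33.4, 35.1 and 15.9 CPM in XCON, compared with 60.3, 52.2 and 35.5 CPM in XCKO, without overlap. Its 0.81 ± 0.32 did not pass in edgeR (adjusted p = 0.142) and was called by DESeq2 (adjusted p = 0.0464). DESeq2 called 3 of the 16 factors higher, beside 1415 of 14865 genes. Nr1h4, which encodes FXR, gave 0.16 ± 0.24 (adjusted p = 0.696), and Nr5a2, which encodes LRH-1, 0.04 ± 0.19 (adjusted p = 0.908). Hnf4a gave 0.31 ± 0.28 (adjusted p = 0.501) and Mafg, a repressor downstream of FXR, 0.24 ± 0.21 (adjusted p = 0.481). The signs of Nr1h4, Nr5a2 and Mafg turned with library totals, and those of all 4 with hepatocyte marker scaling.

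Around FGFR4, 33 genes of FGF receptor signalling were tested, of which 4 were called higher and 3 lower, beside 5.21% and 4.05% of all genes. Their median was -0.06 beside -0.05 for all genes. With library totals 2 were higher and 8 lower, and with hepatocyte marker scaling 1 and 12. Of all 14873 genes tested, library totals called 326 higher and 2032 lower, and hepatocyte marker scaling 177 and 4234. Fgf15, the gut hormone of this receptor, had 0 reads in all 6 libraries, where a count of 0 allows up to 0.101 to 0.13 CPM, depending on the library, and Kl, which encodes α-klotho, had 1 read in all. Fgf21, a hepatocyte hormone that signals through β-klotho, measured 22.8, 11.8 and 14.1 CPM in XCON, against 25.9, 9.16 and 4.63 CPM in XCKO, with full overlap (-0.30 ± 0.61, adjusted p = 0.78). Sdc1, a cell surface proteoglycan, was between 313 and 378 CPM in XCON and between 706 and 810 CPM in XCKO (1.13 ± 0.17, adjusted p = 0.0116). Fgfr2, another receptor of the family, fell from 33.7, 38.2 and 29.4 CPM to 12.6, 9.82 and 18.3 CPM (-1.32 ± 0.23, adjusted p = 0.0163). Both were called in all 6 fits without 1 library and with both other scalings.

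The other FGF genes called were less stable. Fgf1, a ligand that binds all FGF receptors, rose by 0.87 ± 0.16 (adjusted p = 0.0201, called in 4 of 6 fits without 1 library), Hras, a signalling GTPase, by 0.78 ± 0.17 (adjusted p = 0.0273, called in 2) and Spry4, a feedback inhibitor, by 0.92 ± 0.22 (adjusted p = 0.038, called in 1). Dusp6, a phosphatase that ERK signalling induces and that acts on ERK, had a log2 fold change of -0.64 ± 0.16 (adjusted p = 0.0413, called in 1), and Nras, a related GTPase, of -0.57 ± 0.14 (adjusted p = 0.0419, called in 0). Hras and Spry4 were not called with library totals (adjusted p = 0.0606 and 0.0818), whereas Fgf1, Dusp6 and Nras were. With hepatocyte marker scaling Fgf1, Hras and Spry4 were not called (adjusted p = 0.121, 0.337 and 0.175), whereas Dusp6 and Nras were. The other tested feedback and output genes of this signalling had values below 0 that did not pass, with Etv5 at -0.99 ± 0.28 (adjusted p = 0.056), Spry1 at -0.78 ± 0.31 (adjusted p = 0.129), Spred1 at -0.31, Il17rd at -0.23, Spred2 at -0.15 and Spry2 at -0.05. With library totals Etv5 (adjusted p = 0.017), Spry1 (adjusted p = 0.048) and Spred1 (adjusted p = 0.0489) were called lower. That scaling called 2032 of the 14873 genes tested lower and 326 higher, and their middle value was -0.31, beside -0.05 with TMM. Whether Etv5, Spry1 and Spred1 fell beyond this general shift was not tested.

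Of 12 transporters of bile acids and sterols, 1 was called higher and none lower, beside 5.21% and 4.05% of all genes. DESeq2 called 5 of the 12 higher, beside 1415 of 14865 genes. The median log2 fold change of the 12 was 0.36, or 0.10 with library totals and -0.11 with hepatocyte marker scaling. Abcg8, a subunit of the sterol exporter into bile, rose from 149 to 212 CPM in XCON to 277 to 418 CPM in XCKO (0.92 ± 0.21, adjusted p = 0.034), a call lost in each fit without 1 library and with both other scalings. Abcb11, the bile salt export pump, gave 0.49 ± 0.24 (adjusted p = 0.201) with overlapping groups.

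**Figure D4:**
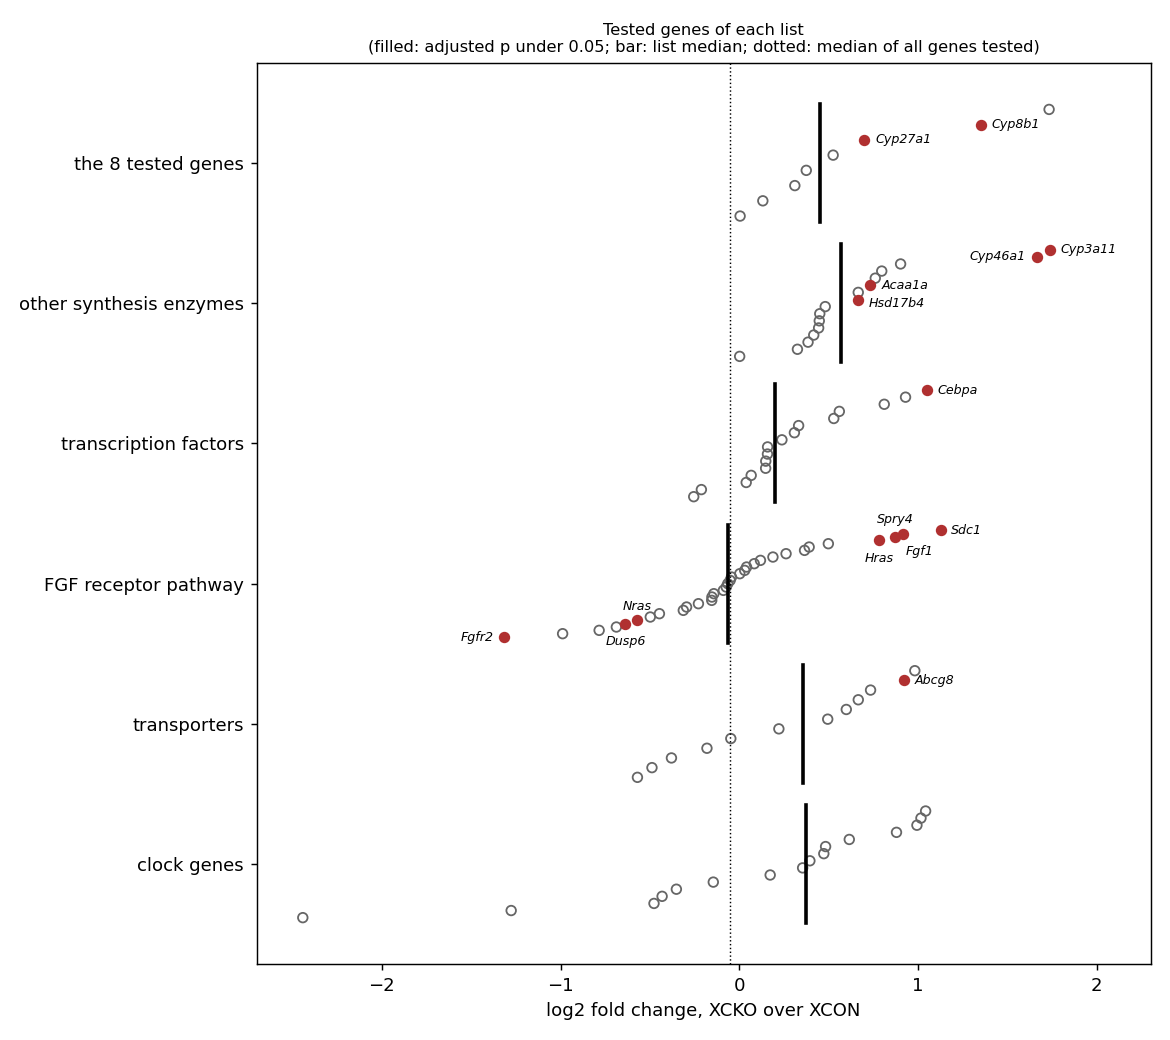
Log2 fold change of XCKO over XCON (x axis) of the tested genes of each list (rows), filled where edgeR's adjusted p is under 0.05, with the median of each list as a bar and that of all 14873 genes as a dotted line. The 8 tested genes and the other synthesis enzymes lie at or above 0 with medians of 0.45 and 0.57, and the FGF receptor list is spread around the dotted line.

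For each of the 8 tested genes the most similar pattern over the 6 libraries was sought among 9472 genes with a mean of at least 5 CPM, as Pearson's r of log2 CPM. With 6 points that share library and depth, such values are a description. Cyp7a1 was followed most closely by Tmem129 (r = 0.994), Ddx27 (0.99) and Slc38a3 (0.99), Cyp8b1 by Tgoln1 (0.992) and Tom1 (0.99), and Cyp27a1 by Slc27a4 (0.997), Ugt1a9 (0.994) and Fam131c (0.993). The closest to Cyp7b1 was Ttc39c (0.988), to Cyp39a1 Tom1l1 (0.976) and to Baat Sqor (0.999). For Fgfr4 it was Slc4a2 (0.992) and for Klb Slc35f6 (0.992).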

How the data were processed

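RNA of 6 hepatocyte preparations, 3 per genotype, was taken up in Trizol, and a NEBNext Ultra RNA kit made the libraries, per the labels' protocols. The authors deposited raw counts per gene, FPKM, log2 fold changes, p-values and group means (a signal of counts divided by size factors, not used here) in one table. The sources used here name no tool for the fold changes. Among tools, the submitters' processing notes list Bowtie 0.12.2, and among builds mm10 and mm8, with no role for any. The start and end of all 9 genes match GENCODE M21 (GRCm38/mm10). Whether counting used strand is unstated in the labels.

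The deposited counts were analysed with edgeR 4.0.16 in R 4.3.3 (robust quasi-likelihood fit, TMM, filterByExpr, group as the only term) over all 54532 genes, of which 14873 were tested. TMM factors ranged from 1.09 to 1.12 in XCON, against 0.85 to 0.974 in XCKO, and the biological coefficient of variation was 25.8%. The SE of a log2 fold change is its size divided by the square root of F. The deposited FPKM equalled counts over gene length and a constant of each library for all genes with at least 50 counts, within 0.1%. How that constant was set was not checked. These FPKM were used for levels between genes. Intervals are 95%, and the limit that a count of 0 allows is 3 counts per library, for counting error only.

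The 9 genes and the 15 other lists (225 genes in all, 224 of them in the table) were chosen with earlier results of these data known. Named are the 9 genes, Xbp1, 12 fixed regulators and enzymes, and from each other list up to 6 genes past 0.05 by smallest p, or the 1 with the smallest p. Not every gene so chosen is reported here, and Nras, Kl, Dbp, Arntl, Ch25h, Etv5, Spry1, Spry2, Spred1, Spred2, Il17rd, the Y-linked genes and Xist were named outside this rule after their values were seen. The markers called defining are given by their place on the marker lists. Alternatives were size factors, library totals, mitochondrial genes left out, no filter and a filter of 5 CPM in 3 libraries, the replicate number as a block, DESeq2 1.42.0, limma-voom and limma (3.58.1) on log2(FPKM + 1) and log2(FPKM + 0.1) for genes reaching 1 FPKM, removal of a length trend, and each library left out. A clock covariate and scaling to hepatocyte markers were added after seeing the data. No 2 libraries of a group agreed within sampling noise (chi-square per degree of freedom 47.4 to 156).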

Additional observations from a re-analysis of the deposited data

How the results depend on the processing

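All of the 19 alternatives kept Xbp1 lower and called, and none reversed Cyp7a1, Cyp8b1, Cyp27a1 or Klb. Against 1378 genes called, the count was 2358 with library totals, 2160 with no filter, 2653 with DESeq2, 337 with the clock covariate, 4411 with hepatocyte marker scaling and 309 to 810 without 1 library. Of the 9 genes, in place of 2, 1 was called with library totals, the clock covariate or hepatocyte marker scaling, 0 with the length trend removed, and 0 to 2 without 1 library. Replicate numbers did not pair the libraries: same-numbered libraries had correlations of 0.055, 0.076 and -0.17, and 1 of the 3 XCON libraries correlated best with its own number. With the replicate number as a block 322 genes and 0 of the 9 were called.

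Cyp8b1 lost its call with the length trend removed (log2 fold change 1.21, adjusted p = 0.0561) and under the block (1.30, 0.0816), beside the fits without XCON 1 or XCON 2. Cyp27a1 lost it in 11 of 19, among them the length trend (0.57, 0.0828). Signs turned for Cyp7b1 with library totals (-0.14), the length trend (-0.014), the clock covariate (-0.15), hepatocyte marker scaling (-0.30) and without 1 library (-0.25 to 0.41). They turned for Cyp39a1 with library totals (-0.26), the 5 CPM filter (-0.056), the replicate block (-0.0013), limma-voom (-0.0014), the length trend (-0.048), the clock covariate (-0.094), hepatocyte marker scaling (-0.47) and without 1 library (-0.0896 to 0.13). With hepatocyte marker scaling Baat was at -0.12, Fgfr4 at -0.17, Hnf4a at -0.16, Mafg at -0.24, Akr1d1 at -0.042, Nr1h4 at -0.34 and Nr5a2 at -0.44. With library totals Nr1h4 was at -0.11, Nr5a2 at -0.22 and Mafg at -0.0089. The clock covariate gave -0.20 for Nr1h4 and 0.15 for Fgf21, and the 5 CPM filter -0.021 for Nr5a2. Without 1 library, Nr1h4 ran from -0.0019 to 0.39, Nr5a2 from -0.041 to 0.19, Fgf21 from -1.22 to 0.13 and the log2 ratio of Klb to Fgfr4 from -0.0048 to 0.75. The cause was not tested for any of these. Few reads kept Hsd3b7, Fgf15, Kl and Ch25h out of the tests.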

Other observations

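Lists of genes known to differ between male and female mouse liver were also counted, since Cyp7b1 is known as male-biased. Of 7 female-biased genes tested, 2 were called higher in XCKO and none lower, where 5.21% and 4.05% of all genes were. Cyp2b9, a female-biased cytochrome P450, rose from 54.7, 17.1 and 30.5 CPM in XCON 1, 2 and 3 to 279, 345 and 198 CPM in XCKO 1, 2 and 3 (log2 fold change 3.01 ± 0.44, edgeR adjusted p = 0.0145), and Cyp2b13 rose by 1.93 ± 0.38 (adjusted p = 0.0229). Cyp2b9 was called in all 6 fits without 1 library and Cyp2b13 in 3 of them. Both are close paralogs, so reads may be split between them. Of 11 male-biased genes 1 was called lower, Mup20, a major urinary protein, which fell from 2812 to 3732 CPM in XCON to 884 to 1503 CPM in XCKO (-1.62 ± 0.26, adjusted p = 0.0137). Of 12 genes known for their place around the central vein 1 was called lower, the glutamine synthetase gene Glul (-1.05 ± 0.25, adjusted p = 0.0363), a call that held in 1 of 6 fits without 1 library and was lost with the clock covariate (adjusted p = 0.076). The 1 of 11 and 1 of 12 are near the share of all genes called lower. None of 12 periportal genes was called by edgeR or limma-voom, with 5 at an unadjusted p under 0.05 in edgeR and 5 called by DESeq2, 4 of them higher. Of all genes tested, 4421 of 14873 had an unadjusted p under 0.05 in edgeR, and DESeq2 called 17.8%, 1415 higher and 1238 lower.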
